A study of Gallus gallus with 28 samples.

Results

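IL13RA1, PROM1, CMYA5 and VLDLR are 4 of 13009 measured genes. They were chosen by their measured levels, high in the BTK knockout line B7.10 and lower in B41-13, a line made from that knockout by adding human BTK. They were read by 9 of 38382 tested probe sets, with 2 for IL13RA1, 4 for PROM1, 2 for CMYA5 and 1 for VLDLR. RNA from 4 related B-lymphoma lines of the chicken was hybridised to 28 Affymetrix arrays. The lines were parental DT40 with its own BTK (10 arrays), the knockout B7.10 (10 arrays), B41-13 carrying human BTK on the knockout background (4 arrays) and B46-5 carrying kinase-inactive human BTK on the same background (4 arrays). BTK is a cytoplasmic tyrosine kinase that relays signals of the B-cell receptor. Cells were collected at 6 h or 24 h without stimulation, or at 2 h or 6 h of stimulation labelled IgM (M4), M4 being an antibody against chicken IgM. All cultures, stimulated or not, began with a short incubation in medium without serum. For DT40 and B7.10 there were 3 fetal calf serum batches, with 1 array per batch at unstimulated 6 h, unstimulated 24 h and stimulated 6 h. Serum batch 1 alone held the 2 h arrays and the lines B41-13 and B46-5, with 1 array per line and condition. The material on an array was pooled from 10 repeats of the experiment. A p-value therefore measures the spread between pools or, where a condition had 1 array per line, the spread over lines and conditions. The tests of serum batches are an exception, since there the 3 conditions of a batch stand in for repeats. Their p-values measure how steady a batch difference was over the conditions. Likewise, where B41-13 or B46-5 is compared with B7.10, the conditions of a line stand in for repeats. A p-value there measures how steady the line difference was over the conditions. With 1 array per line, batch and condition, whether a serum difference would recur was not tested. B7.10, B41-13 and B46-5 were each 1 line, so what is peculiar to a line cannot be told apart from its BTK.

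IL13RA1 encodes a chain of the receptor for interleukin 13, which joins the interleukin 4 receptor chain to form the receptor that both cytokines use and, in mammals, signals through JAK kinases and STAT6. VLDLR belongs to the LDL receptor family; in the hen it carries lipoprotein and vitellogenin into the oocyte, and in the mammalian brain it receives reelin together with LRP8. PROM1, known in human as CD133, is a cholesterol-binding protein of membrane protrusions that marks several kinds of progenitor cell. CMYA5, or myospryn, is a large muscle protein known in mammals to bind desmin, dysbindin and a regulatory subunit of protein kinase A. None of the 4 is a classical gene of the B-cell receptor pathway.

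Levels are log2 signal after RMA, a method that corrects background, equalises arrays and summarises the probes of a set, so 1 unit is a 2-fold difference, and levels of different genes are not compared. A level under 3.98, the level below which the dimmest 40% of probe sets lie, is called near background here, and folds measured against it are lower bounds. BTK, read by 1 probe set, stood at 9.34 to 10.6 in DT40, 4.70 to 5.30 in B7.10, 5.61 to 5.97 in B41-13 and 5.13 to 5.36 in B46-5. Whether the chicken probes read the human constructs was not tested. The B-cell list had 8 of 8 measured markers above 3.98 in the median array (medians 5.23 to 11.6). Other lists had 4 of 6 for T cells, 4 of 4 for myeloid cells, 1 of 2 for erythroid cells and thrombocytes, 1 of 3 for epithelial cells, 5 of 6 for fibroblasts and 5 of 6 for muscle. Among muscle markers MYOD1 never exceeded 3.39, while the highest levels of the others ran from 4.46 (RYR2) to 7.16 (ACTN2). The T-cell marker CD3D had a median above that of every measured B-cell marker. The summed linear signal of the myeloid list ran from 968 to 1530 in DT40, 1180 to 1568 in B7.10, 1525 to 1877 in B41-13 and 1405 to 1675 in B46-5, and that of the fibroblast list from 498 to 666, 297 to 461, 351 to 400 and 324 to 376. For the muscle list it ran from 156 to 196, 143 to 174, 187 to 241 and 147 to 163. Such a sum follows its brightest genes, in the myeloid list mainly SPI1 (line means from 9.73 to 10.4). The markers of other cell types whose line means lay farthest apart, named after their values were seen, were the myeloid gene CYBB (7.97 in DT40, 4.69 in B7.10, 7.60 in B41-13 and 7.52 in B46-5) and the fibroblast gene BGN (7.91, 4.90, 5.32 and 5.20). Their part in the line levels below was not tested. For 5 arrays the title stood against another label on serum batch, time, stimulation or line: the stimulated 6 h arrays of B7.10 from serum batches 2 and 3, the stimulated 6 h arrays of B41-13 and B46-5, and the 24 h array of B46-5. The title was used, and calls that change without these arrays are given.

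IL13RA1, PROM1 and CMYA5 shared 1 order of levels, with B7.10 highest, B46-5 between, and B41-13 and DT40 lowest. These levels chose the genes, so they are a description and carry no test. IL13RA1 had a lowest, median and highest level of 7.41, 7.99 and 8.89 in B7.10 and of 3.55, 3.78 and 3.99 in DT40. In B46-5 it stood at 5.43 at unstimulated 6 h, 6.43 at 24 h, 6.06 at stimulated 2 h and 5.76 at stimulated 6 h. In B41-13 it stood at 4.11, 3.83, 3.64 and 3.78 in the same order. Of these arrays, 9 of 10 in DT40 and 3 of 4 in B41-13 were near background, and the B46-5 arrays overlapped none of the other lines.

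In serum batch 1, where all 4 lines can be matched by condition, IL13RA1 was 4.58 ± 0.53 log2 higher in B7.10 than in DT40 (SD over 4 conditions, at least 23.9-fold) and 2.44 ± 0.30 higher in B7.10 than in B46-5. B46-5 was 2.14 ± 0.46 above DT40, at least 4.40-fold. The difference of DT40 from B41-13 was -0.06 ± 0.31, which is smaller than its spread over conditions. In a pooled culture, fewer expressing cells and less RNA per cell cannot be told apart.

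PROM1 on its brightest probe set had a lowest, median and highest level of 5.55, 6.81 and 7.58 in B7.10, against 3.07, 3.46 and 3.72 in DT40, where all 10 arrays were near background. In B46-5 the levels were 6.02 at unstimulated 6 h, 6.24 at 24 h, 6.39 at stimulated 2 h and 5.93 at stimulated 6 h. In B41-13 they were 3.34, 3.71, 3.99 and 3.63. The B46-5 arrays lay inside the range of all B7.10 arrays, yet below each B7.10 array of serum batch 1 (6.85 to 7.58), by 1.17 ± 0.23 log2 (SD over 4 conditions). B7.10 exceeded DT40 by 3.93 ± 0.35 in that batch, at least 15.2-fold.

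CMYA5 lay above 3.98 on every array on its brighter probe set. Whether its levels in DT40 and B41-13 stand for RNA was not tested, and BTK read 4.70 to 5.30 in its own knockout. Its lowest, median and highest levels were 7.81, 8.52 and 9.05 in B7.10 and 4.51, 4.97 and 5.74 in DT40. B46-5 stood at 7.49 at unstimulated 6 h, 7.48 at 24 h, 6.36 at stimulated 2 h and 7.38 at stimulated 6 h, and B41-13 at 5.90, 5.72, 4.86 and 5.89. In serum batch 1 B7.10 was 3.45 ± 0.59 log2 above DT40 (SD over 4 conditions, 10.9-fold) and 3.09 ± 0.12 above B41-13, and its mean was 2.83-fold that of B46-5. The ranges of B41-13 and DT40 overlapped, and B46-5 overlapped neither B7.10 nor those lines. The desmin gene DES, a muscle marker, averaged 4.59 in DT40, 4.57 in B7.10, 4.51 in B41-13 and 4.58 in B46-5, and so did not share this order. It ran from 4.32 to 5.06 over all arrays, and whether these levels stand for RNA was not tested. Another muscle marker, ACTN2, averaged 5.80, 5.39, 6.68 and 5.52 in the same lines, highest in B41-13. The remaining muscle markers are not given here.

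VLDLR went against the description of a gene raised in the knockout. It had a lowest, median and highest level of 5.76, 7.24 and 7.54 in DT40 and of 5.46, 5.95 and 7.04 in B7.10, so these lines overlapped. In B41-13 it lay near background on all 4 arrays, at 3.55, 3.66, 3.39 and 3.58 for unstimulated 6 h, 24 h, stimulated 2 h and stimulated 6 h. In B46-5 it stood at 6.29, 6.49, 6.25 and 6.35. Its lowest level was that of B41-13, which lay 3.90 ± 0.16 log2 below DT40 (SD over 4 conditions of serum batch 1, at least 14.9-fold), 2.80 ± 0.05 below B46-5 and 2.29 ± 0.27 below B7.10. In the same batch B46-5 lay 1.10 ± 0.12 below DT40.

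**Figure D1:**
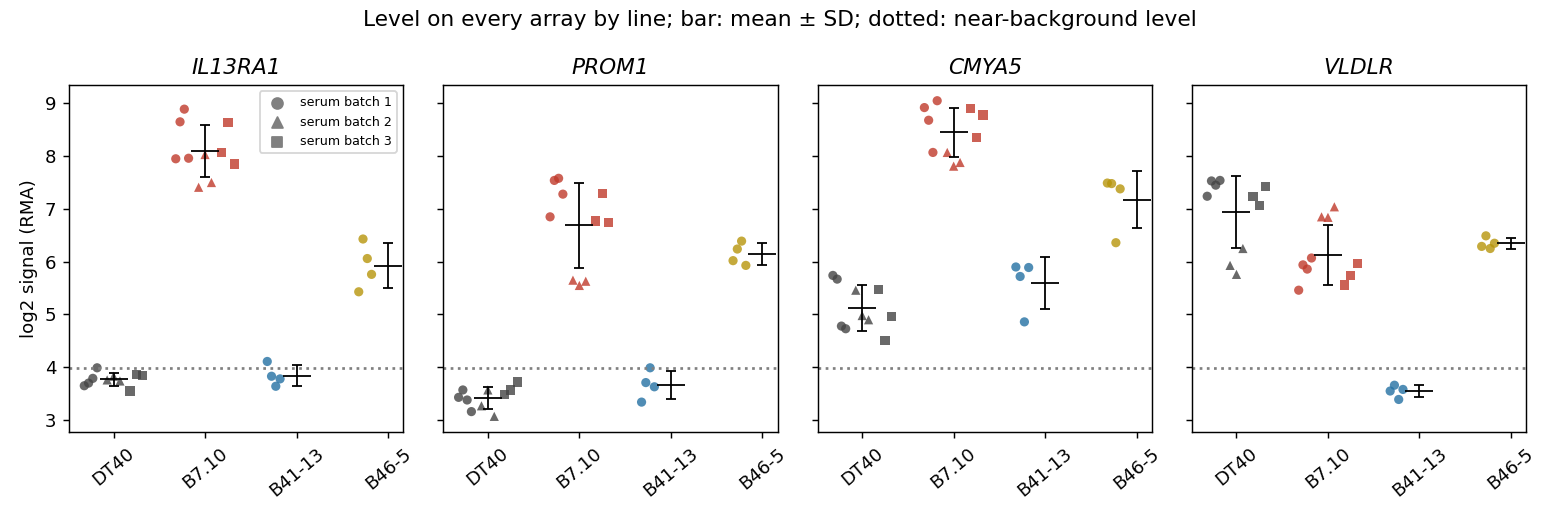
Log2 signal (vertical axis) of the brightest probe set of each gene on every array, by line (horizontal axis), with circles, triangles and squares for serum batches 1, 2 and 3, a bar for mean ± SD over the line's arrays and a dotted line at 3.98. IL13RA1, PROM1 and CMYA5 are highest in B7.10 and intermediate in B46-5, whereas VLDLR is near background only in B41-13 among the 4 lines.

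The serum batch was not used in choosing the genes, and among the comparisons run it gave the most calls of their probe sets. Within B7.10, limma's moderated F test over 3 serum batches called the brightest probe set of all 4 genes, and 5 of 9 probe sets, where 1.06% of all tested probe sets were called. The other called probe set, a dimmer one of PROM1, was near background on 7 of 10 B7.10 arrays, among them all of batches 2 and 3. The genes were chosen for a high level on these same B7.10 arrays, whereas the 1.06% also covers the dimmest probe sets. The shares are therefore not measured on like probe sets, and the same holds for the test between the lines below. In B7.10 grown in serum batches 1, 2 and 3, PROM1 stood at 6.85, 5.65 and 6.77 at unstimulated 6 h, at 7.54, 5.55 and 7.29 at 24 h, and at 7.28, 5.63 and 6.75 at stimulated 6 h. The level was lowest in batch 2 in each condition, and batch 2 minus batch 1 was -1.62 ± 0.14 log2 (SE of the fit, 3 arrays per batch). The same difference was -0.96 ± 0.17 for CMYA5 and -0.54 ± 0.10 for IL13RA1. The limma F test over all 3 batches gave adjusted p = 9.44e-06 for PROM1, 0.0151 for CMYA5 and 0.0111 for IL13RA1. Batch 3 differed from batch 1 by -0.29 ± 0.14 for PROM1, by -0.20 ± 0.17 for CMYA5 and by -0.01 ± 0.10 for IL13RA1.

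The calls of IL13RA1 and CMYA5 depended on single arrays of batch 2. Without the B7.10 array of batch 2 at unstimulated 6 h or at 24 h, IL13RA1 had an adjusted p of 0.117 and 0.118, and CMYA5 one of 0.0965 and 0.0904. Without the stimulated array of batch 2 the CMYA5 value was 0.128, and without both arrays of disputed labels it was 0.152. The count of called probe sets was then 3, 2 and 3 without the unstimulated 6 h, 24 h and stimulated array of batch 2. In DT40, where IL13RA1 and PROM1 are near background, these 3 genes were not called between batches (adjusted p from 0.527 to 0.987).

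VLDLR moved in opposite directions in the 2 lines. In DT40 of serum batches 1, 2 and 3 it stood at 7.24, 5.93 and 7.23 at unstimulated 6 h, at 7.53, 5.76 and 7.06 at 24 h, and at 7.54, 6.25 and 7.42 at stimulated 6 h. In B7.10 it stood at 5.46, 6.85 and 5.56, at 5.94, 6.84 and 5.74, and at 6.07, 7.04 and 5.96 in the same order. Batch 2 was the lowest batch in every condition of DT40 and the highest in every condition of B7.10. The fitted difference of batch 2 from batch 1 was -1.46 ± 0.11 log2 in DT40 and 1.09 ± 0.11 in B7.10 (SE, 3 arrays per batch). The limma F test over all 3 batches gave adjusted p = 8.65e-07 in DT40 and 1.35e-05 in B7.10. In DT40 it called 1 of 9 probe sets, against 1.7% of all. VLDLR was therefore lower in B7.10 than in DT40 in 7 of 7 pairs of arrays from batches 1 and 3 and higher in 3 of 3 pairs from batch 2. Averaged over 3 conditions, B7.10 differed from DT40 by -1.61 ± 0.16, 0.93 ± 0.15 and -1.48 ± 0.18 (SD) in batches 1, 2 and 3.

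The difference of the batch effects between the lines was tested in the same fit, a test that was added after these values had been seen. It called 3 of 9 probe sets, against 1.24% of all tested: that of VLDLR (adjusted p = 8.01e-08), the brightest of PROM1 (adjusted p = 0.00105) and the dimmer one of PROM1 named above (adjusted p = 0.0173). Both PROM1 probe sets were near background on all 10 DT40 arrays, from which a fall cannot be measured, so these calls do not show that the lines respond differently. The gap between B7.10 and DT40 changed from batch 1 to batch 2 by 2.55 ± 0.16 log2 for VLDLR (SE). For IL13RA1, also near background in DT40, it changed by -0.54 ± 0.14 and for CMYA5 by -0.69 ± 0.24. The F test over all 3 batches gave adjusted p = 0.0947 for IL13RA1 and 0.214 for CMYA5 (0.00967 without the 24 h DT40 array of batch 1). VLDLR ranked 7 of 38382 by this F statistic. Only 4 probe sets were lower in B7.10 by at least 0.5 log2 in every condition of batches 1 and 3 and higher by as much in every condition of batch 2, a rule set after the values were seen. They were that of VLDLR, 2 of MBP, the gene of myelin basic protein, and 1 without a symbol, while 1 probe set, of the laminin gene LAMB1, did the opposite.

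**Figure D2:**
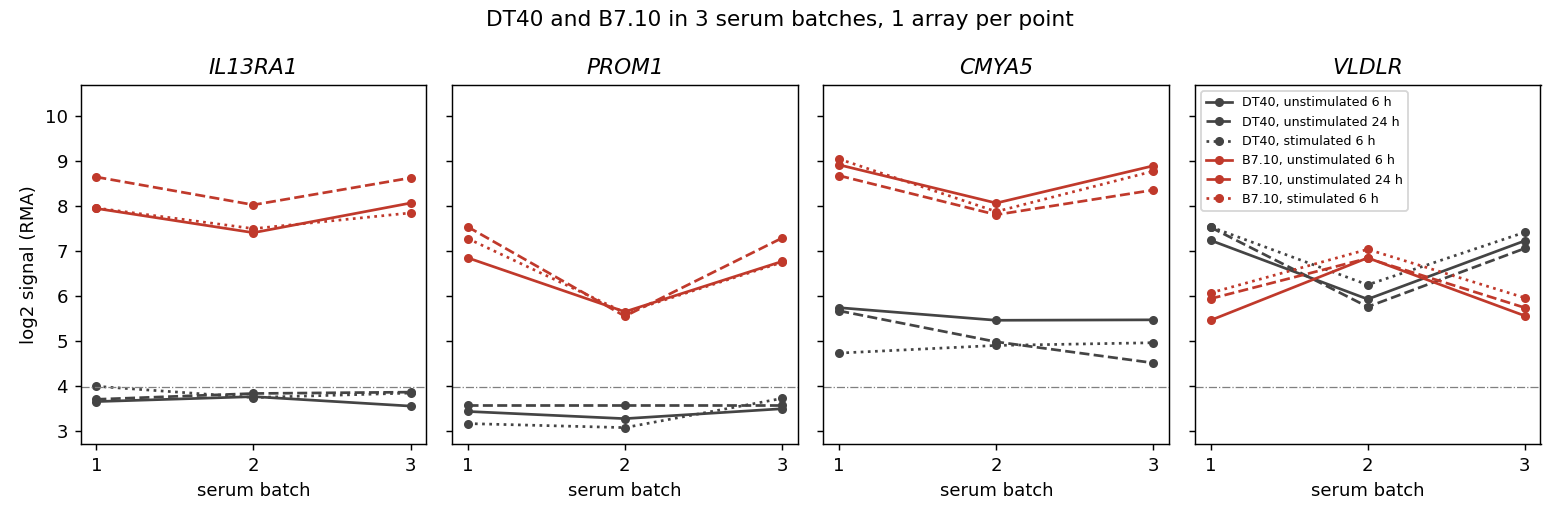
Log2 signal (vertical axis) in DT40 (grey) and B7.10 (red) by serum batch (horizontal axis), 1 array per point, with lines joining the arrays of 1 condition and a horizontal line at 3.98; the batches have no order. PROM1 in B7.10 drops to between 5.55 and 5.65 in batch 2, and the lines cross for VLDLR, where B7.10 is above DT40 only in batch 2.

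Time in culture was compared between unstimulated 24 h and 6 h. The arrays are among those whose levels chose the genes, but the choice did not use the difference between the times. No probe set of the 4 genes was called by limma in DT40 (0 of 9, background 0.573%), in B7.10 (0 of 9, background 0.232%) or in the difference between the lines (0 of 9, background 0.00521%). At an unadjusted p under 0.05 there were 0 of 9 in DT40, 3 in B7.10 and 1 in the difference. Over all 38382 tested probe sets, 5058, 4935 and 2327 had such a p. These fits did not remove the serum batch. With the serum batch as a block, 554 probe sets in DT40 and 270 in B7.10 were called over the whole array, in place of 220 and 89, and again none of the 4 genes. The block gave both lines the same batch terms, so it could not remove batch differences unlike in the lines, as measured for VLDLR and PROM1. The lack of calls thus does not show that these genes stayed the same. IL13RA1 came nearest to a call. In B7.10 it was higher at 24 h by 0.70, 0.62 and 0.56 log2 in serum batches 1, 2 and 3, against 0.05, 0.07 and 0.31 in DT40, where it is near background. The fitted change in the knockout was 0.63 ± 0.17 (SE, n = 3 arrays a group; limma adjusted p = 0.143, 0.0531 with the block, and from 0.0315 to 0.555 over all alternatives) and 0.14 ± 0.17 in DT40 (adjusted p = 0.772). Without the 24 h B7.10 array of batch 2 it was 0.83 at the lowest of these p, with 2 of 9 probe sets called. That fit kept the 6 h array of batch 2, so its value and calls also hold the serum difference. In the pairs of batches 1 and 3, IL13RA1 changed by 0.70 and 0.56, as given above. Its second probe set gave 0.55 ± 0.16 in B7.10 (adjusted p = 0.162). In the single pairs of arrays the change was 1.00 in B46-5 and -0.28 in B41-13.

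Over the 4 lines of serum batch 1, the 24 h change was 0.37 ± 0.19 for IL13RA1 (adjusted p = 0.461, limma), 0.36 ± 0.11 for PROM1 (adjusted p = 0.144) and 0.27 ± 0.09 for VLDLR (adjusted p = 0.202). The IL13RA1 value was 0.22 without the 24 h array of B46-5, whose time label is disputed, 0.23 without its 6 h array and 0.57 without the unstimulated 6 h array of B41-13, and the VLDLR value was 0.17 without that of B7.10. PROM1 and VLDLR were higher at 24 h in 4 of 4 lines of this batch, yet 0 of 9 probe sets passed (background 0.941%). At an unadjusted p under 0.05 there were 3 of the 9, beside 4578 of all 38382. In these arrays PROM1 was near background in DT40 and B41-13, and VLDLR in B41-13. The other batches did not all go the same way. In batches 2 and 3 VLDLR changed by -0.17 and -0.17 in DT40 and by -0.01 and 0.18 in B7.10. PROM1 changed by -0.10 and 0.52 in B7.10 of those batches. CMYA5 was lower at 24 h in all 3 batches of DT40, by 0.07, 0.48 and 0.96, a fitted change of -0.50 ± 0.30 that did not pass (adjusted p = 0.504). It was -0.81 without the 24 h array of batch 1 and -0.23 without that of batch 3, values that can also hold serum differences.

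The effect of stimulation was read at 6 h, against unstimulated cells of the same age. In DT40 limma called 0 of 9 probe sets (background 0.0443%), with 1 at an unadjusted p under 0.05, beside 2726 of all 38382. In B7.10 it called 0 (0 at an unadjusted p under 0.05), where 0% of all tested were called and 6419 had an unadjusted p under 0.05. Blocking on serum batch, the counts over all probe sets were 41 in DT40, in place of 17, and 616 in B7.10, and none of the 4 genes was among them. CMYA5 was lower in stimulated DT40 by 1.01, 0.56 and 0.51 log2 in serum batches 1, 2 and 3, and changed by 0.13, -0.19 and -0.12 in B7.10. The fitted change in DT40 was -0.69 ± 0.30 (SE, n = 3 arrays per group; adjusted p = 0.675), and the difference between the lines was 0.63 ± 0.43 (adjusted p = 1; 0 of 9 called, background 0.00261%). That difference was 1.11 without the arrays of disputed labels and ran from 0.35 to 0.98 when single arrays were left out. VLDLR was higher after stimulation in 6 of 6 pairs of these lines, by 0.19 to 0.32 in DT40 and by 0.19 to 0.61 in B7.10. The fitted change in B7.10 was 0.40 ± 0.49, an SE that holds the spread between serum batches, which the fit did not remove. The stimulated B7.10 arrays of batches 2 and 3 have disputed labels. The fitted change was 0.11 without them, and from 0.05 to 0.84 without single arrays. Without them, the stimulated array of batch 1 is set against unstimulated arrays of all 3 batches. Values with arrays left out, those of CMYA5 above included, can thus also hold serum differences and do not measure stimulation alone. In serum batch 1 VLDLR changed by 0.30 in DT40 and 0.61 in B7.10. It changed by 0.06 in B46-5 and by 0.03 in B41-13, where it is near background. Over the 4 lines of that batch, the fitted change of VLDLR was 0.25 ± 0.09 (limma adjusted p = 0.248, and 0.15 log2 without the unstimulated 6 h array of B7.10). There 0 of 9 probe sets were called (background 0.0130%), with 1 at an unadjusted p under 0.05, beside 5244 of all 38382.

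The 2 h stimulated arrays differ from the unstimulated 6 h arrays in time as well as in stimulation. Here 2 of 9 probe sets were called, where 7.96% of all tested were. CMYA5 fell in all 4 lines, from 5.74 to 4.78 in DT40, from 8.92 to 8.07 in B7.10, from 5.90 to 4.86 in B41-13 and from 7.49 to 6.36 in B46-5. The changes of -0.96, -0.85, -1.04 and -1.13 log2 lie close together although the starting levels differ by over 3 units. The fitted change was -0.99 ± 0.16 (SE, 4 lines with 1 array each; limma adjusted p = 0.000741). At 6 h of stimulation CMYA5 stood at 9.05 in B7.10, 5.89 in B41-13 and 7.38 in B46-5, near the unstimulated levels, and at 4.73 in DT40, near its 2 h level. Each value is 1 array, and those of B41-13 and B46-5 have disputed time labels, that of B41-13 a disputed line as well.

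PROM1 was higher at 2 h by 0.73 in B7.10, 0.65 in B41-13 and 0.37 in B46-5 and changed by -0.05 in DT40, a fitted 0.42 ± 0.11 (adjusted p = 0.0216), although in DT40 and B41-13 it lay at or near background. This call was lost without either of the 2 arrays of B7.10 or of B41-13 in the comparison (unstimulated 6 h or stimulated 2 h), or without the 2 h array of B46-5, with adjusted p from 0.0556 to 0.0980. It rests on the brightest probe set of PROM1. None of the others was called, with fitted changes of 0.02, 0.09 and -0.07. The first of these lay above 3.98 on the B7.10 arrays compared and changed there by -0.41. IL13RA1 changed by 0.94 in B7.10 and 0.63 in B46-5, and by 0.14 in DT40 and -0.47 in B41-13, where it lies at or near background, and was not called (0.31 ± 0.19, adjusted p = 0.367; 0.13 to 0.51 without single arrays). A difference between lines has no replicate at 2 h. VLDLR changed by 0.10 ± 0.09 (adjusted p = 0.571).

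**Figure D3:**
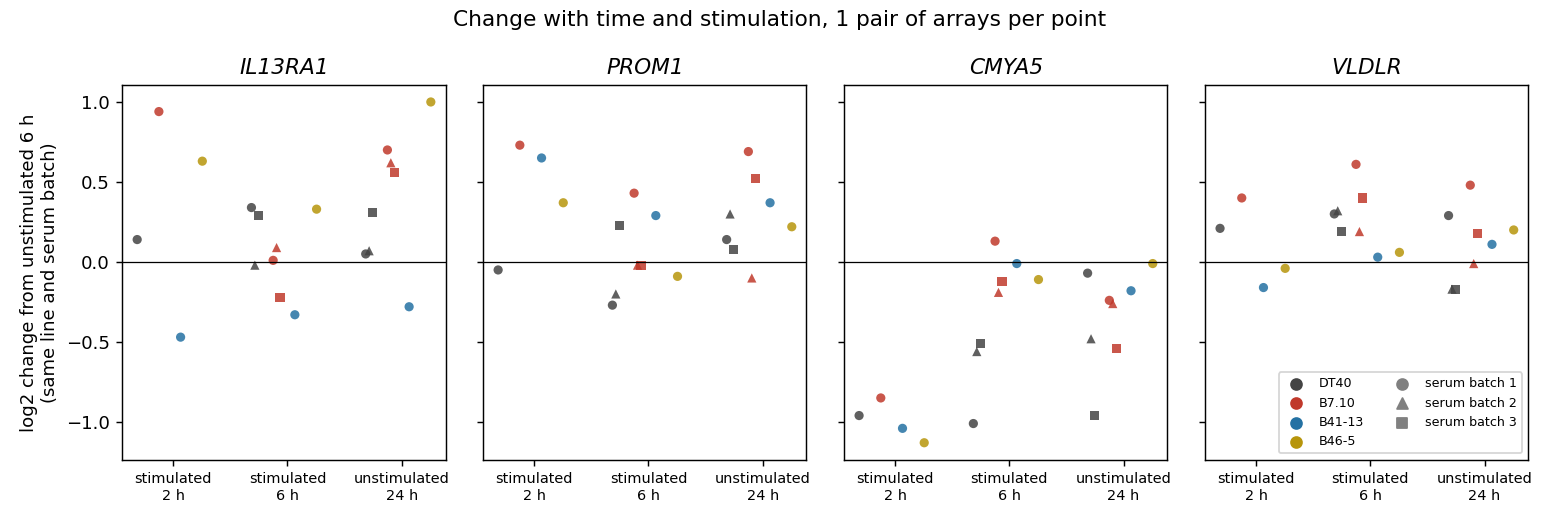
Log2 change (vertical axis) from the unstimulated 6 h array of the same line and serum batch, for stimulated 2 h, stimulated 6 h and unstimulated 24 h (horizontal axis), with colours for lines and symbols for serum batches. The 4 points of CMYA5 at 2 h lie between -1.13 and -0.85, and the 24 h points of IL13RA1 lie between 0.56 and 1.00 in B7.10 and B46-5.

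The other probe sets of the genes were dimmer and agreed in part. The second probe set of IL13RA1 had a median of 4.15 in B7.10 (highest 4.93) and of 3.34 in DT40 (highest 3.57), without overlap, but lay near background on all 4 arrays of B46-5 (3.39 to 3.67). For PROM1, 1 probe set ran from 3.52 to 4.42 in B7.10 and from 2.97 to 3.52 in DT40, and the other 2 were near background on all arrays. The second probe set of CMYA5 showed no such order, with 3.90 to 4.54 in B7.10, 3.81 to 4.51 in DT40, 3.71 to 4.19 in B41-13 and 4.03 to 4.24 in B46-5. The CMYA5 values above therefore rest on 1 of its 2 probe sets, and those of VLDLR on its single one.

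**Figure D4:**
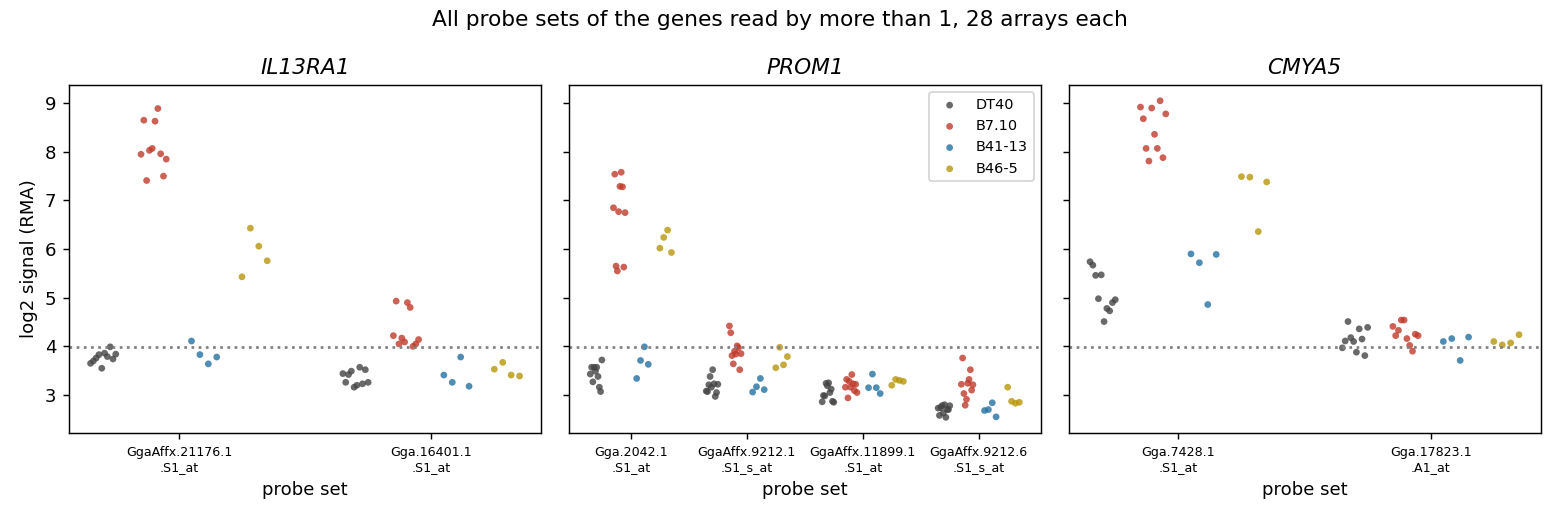
Log2 signal (vertical axis) on 28 arrays for each probe set (horizontal axis) of IL13RA1, PROM1 and CMYA5, coloured by line, with a dotted line at 3.98. The second probe set of IL13RA1 keeps B7.10 above DT40 at a lower level, and that of CMYA5 shows the lines between 3.71 and 4.54 without separation.

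Genes that work with the 4 were followed in lists written from general knowledge, each by its brightest probe set. The shares over all probe sets given beside the lists also cover the dimmest probe sets. They are therefore not measured on like probe sets, and an excess over them was not tested. In the interleukin 4 and 13 receptor pathway, 3 of 16 measured genes were higher in B7.10 than in DT40 and 0 lower (limma), where 5.22% of all probe sets were higher and 8.22% lower. The cytokine-signalling inhibitor SOCS1 was higher by 1.35 ± 0.12 log2 (SE, 3 arrays in each of 6 groups; adjusted p = 1.71e-07), the adaptor IRS2 by 0.37 ± 0.07 on 1 of its 4 probe sets (adjusted p = 0.000782) and the phosphatase PTPN6 by 0.29 ± 0.09 (adjusted p = 0.0363). PTPN6 was higher still in B41-13, by 0.52 ± 0.09 against B7.10 (adjusted p = 0.000616). SOCS1 was lower than in B7.10 both in B41-13, at -0.63 ± 0.13, and in B46-5, at -1.42 ± 0.13 (adjusted p = 0.00349 and 8.92e-07). The order of SOCS1 in those lines is thus not that of IL13RA1, for which B46-5 lies above B41-13. The median of the list was 0.05 for B7.10 against DT40, beside 0.01 over all probe sets. Against B7.10, 1 of the 16 was higher and 1 lower in B41-13, beside 4.03% and 6.73% of all probe sets. In B46-5, 1 was higher and 2 were lower, beside 3.19% and 3.86%. Besides SOCS1 these were SOCS3 at 0.62 ± 0.11 and JAK2 at -0.64 ± 0.08, the latter on 1 of its 2 probe sets.

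Of 18 measured relatives and partners of VLDLR, 2 were lower in B7.10 and 0 higher: LRP11 at -0.45 ± 0.10 (adjusted p = 0.00315, with 2 of its other 3 probe sets also called lower) and LRP8, which shares the reelin ligand, at -0.35 ± 0.10 (adjusted p = 0.0194). LRP8 was 0.82 ± 0.11 higher in B46-5 than in B7.10 (adjusted p = 3.98e-05), the only call of the list in that comparison, where 3.19% of all probe sets were higher and 3.86% lower. In B41-13, where VLDLR was near background, 1 of the 18 was called against B7.10, LRP12 at -0.38 ± 0.12 with an adjusted p barely under the threshold, where 4.03% of all were higher and 6.73% lower. The medians of the list lay between -0.02 and 0.02 log2 in these 3 comparisons.

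Of 14 measured relatives of PROM1 and surface markers of progenitor cells, 1 was higher and 2 were lower in B7.10 than in DT40, and so of 17 measured partners of CMYA5 and muscle genes, beside the 5.22% and 8.22% over all probe sets. In the first list the chemokine receptor CXCR4 was higher in B7.10 at 0.49 ± 0.10 (adjusted p = 0.00156), while the hyaluronan receptor CD44, at -1.33 ± 0.10, and the integrin ITGA6, at -1.58 ± 0.29, were lower (adjusted p = 7.18e-09 and 0.000577). CXCR4 was lower than in B7.10 in both B41-13 and B46-5, and CD44 higher in both. ITGA6 was 0.56 ± 0.11 higher in B46-5 than in the knockout (limma adjusted p = 0.00254), but its other probe set was not called there (0.26, adjusted p = 0.123). In the second list MEF2A was higher in B7.10 at 0.44 ± 0.09 (adjusted p = 0.00221), and the actin crosslinker ACTN2, at -0.42 ± 0.08, and FSD1L, at -0.24 ± 0.05, were lower (adjusted p = 0.00132 and 0.00150). MEF2A was also 0.47 ± 0.09 higher in B46-5 than in the knockout (limma adjusted p = 0.00242). None of its other probe sets was called there (adjusted p from 0.228 to 0.736). For B7.10 against DT40, 1 of those passed (adjusted p = 0.0476), and the other probe set of ACTN2 did not (adjusted p = 0.0944). Against B7.10, ACTN2 in B41-13 was higher by 1.25 ± 0.14 with an adjusted p of 6.05e-06, and both of its probe sets were called. The known partner DTNBP1, or dysbindin, was called only in B46-5 among the 3 comparisons, at -0.49 ± 0.10 against B7.10 on 1 of its 2 probe sets (adjusted p = 0.00487). Not every call of this list is named. Of the 17, 2 were higher and 1 lower than in B7.10, in B41-13 and again in B46-5. Of the 14 in the first list, 1 was higher and 1 lower in B41-13, and 2 were higher and 1 lower in B46-5. Over all probe sets the shares were 4.03% and 6.73% in B41-13 and 3.19% and 3.86% in B46-5.

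Likeness of pattern was measured by Pearson's r over 28 arrays among 1874 genes with an SD of at least 0.3 log2, as a description, since the arrays share lines and most of r reflects the line levels. The genes most like IL13RA1 were the transcription factor gene NFIX (r = 0.97), NUDT12 (r = 0.96), PROM1 (r = 0.94) and CMYA5 (r = 0.94). NFIX stood at 5.97 on average in DT40, 8.16 in B7.10, 6.07 in B41-13 and 7.32 in B46-5, the same order as IL13RA1. PROM1 was most like IL13RA1, NFIX, CMYA5 and DHRS4, and CMYA5 most like IL13RA1, CMTM7, NUDT12 and PLCH1. IL13RA1, PROM1 and CMYA5 were chosen by their line levels. Their likeness to each other thus follows in part from the choice and is no evidence of a link. The genes most like VLDLR were LRRC1 (r = 0.91), RNF11 (r = 0.90), CAMKK1 (r = 0.89) and PTGFRN (r = 0.87). LRRC1 averaged 4.54 in B41-13, against 7.28 in DT40, 6.57 in B7.10 and 7.11 in B46-5.

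After the line means were subtracted, other genes came first, and none of the 4 was among the 3 genes most like another of them. IL13RA1 was then nearest to GLIPR2, RNASET2 and BCL6 (r from 0.68 to 0.77), PROM1 to MDK, LCP1 and MPP7 (r from 0.79 to 0.84), CMYA5 to SPNS3, AGR3 and SPATS2L (r from 0.81 to 0.88) and VLDLR to TRIQK, LGALS1B and TMEM53 (r from 0.87 to 0.90).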

How the data were processed

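The deposited values are log2 signals of probe sets. Per the submitters' processing notes the authors used RMA; no version is stated there. Array medians lay between 4.37 and 4.5 log2. Of 38535 probe sets, 153 control and reporter sets were left out. Symbols came from the platform table (27178 probe sets with 1 symbol, 177 with several, 11180 with none), and 4 of 4 gene IDs matched the reference table under the same symbol. The brightest probe set over 28 arrays stood for a gene.

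Samples were grouped by title. With limma 3.58.1 in R 4.3.3, 18 arrays of DT40 and B7.10 were fitted as 6 group means (12 residual degrees of freedom) or with the serum batch within each line added (8), and 16 arrays of serum batch 1 as line plus condition (9). Calls were made at 0.05 on limma p-values after Benjamini-Hochberg adjustment across the 38382 tested probe sets. The replicate number is the serum batch of the labels, so it pairs the samples. The check of this took each array's deviation from its group mean: the median r was 0.12 for 45 same-batch array pairs and -0.06 for 90 other pairs. Deviations cancel within a group, so the second value largely follows from the first and is no separate support. Fits were also run with that block, without the 40% dimmest probe sets, after cyclic loess, with trend and robust moderation, and without single or disputed arrays. The tests were also run on simulated arrays with independent noise and known changes added. Apart from those changes the arrays held no line or serum batch differences, so the run does not show how such differences affect the calls.

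All probe sets of the 4 genes were described. From each list up to 3 genes each way with the smallest adjusted p between B7.10 and DT40 were named, with some calls in the other lines; DTNBP1 and LRP12 were picked with their values known. For likeness, 4 genes were named over 28 arrays and 3 over deviations from line means. The members and lists were chosen with earlier results of these data known. No sequences or gene positions were used. Python 3.11.15 (matplotlib 3.10.9 for figures, pandas 2.3.3 for tables) did the rest.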

Additional observations from a re-analysis of the deposited data

Results flagged for a closer look

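The test of a difference between B7.10 and DT40 in the effect of the serum batch passed for VLDLR (limma F test, adjusted p = 8.01e-08), for the brightest probe set of PROM1 (adjusted p = 0.00105) and for a second probe set of PROM1 (adjusted p = 0.0173). For VLDLR the direction was opposite in the lines, in 3 of 3 conditions each. Both PROM1 probe sets were near background in DT40 in every batch, so a fall there could not be measured, and the second was near background on 7 of 10 B7.10 arrays as well.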

How the results depend on the processing

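With the serum batch as a replicate block, no member was called in the 6 comparisons of time and stimulation, as without it. IL13RA1 at 24 h in B7.10 changed by 0.63 with a limma adjusted p of 0.0531. Because the block was shared by both lines, batch differences unlike in the lines, as measured for VLDLR and PROM1, stayed in the spread. Calls among the partner lists changed by less than 1.5 times under every alternative. Without the 40% dimmest probe sets, after cyclic loess and with trend and robust moderation, the counts of called members were within 1.5 times in all 12 comparisons. The difference of B7.10 from DT40 depended on the serum batch. In batch 2 alone it was 2.31 log2 for PROM1, 2.81 for CMYA5 and 0.93 for VLDLR, which reversed it. In batches 1 and 3 alone it was -1.61 and -1.49 for VLDLR. When single arrays were left out, the count of called probe sets ranged from 2 to 5 for serum batches in B7.10, from 1 to 2 at 2 h and from 0 to 2 for 24 h in B7.10. For 24 h in B7.10 the serum batches were then unbalanced, so these calls also hold serum differences. Of 1056 values of single genes under alternatives, 43 changed sign, of which 0 were called.

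The counts over all probe sets moved more. With the block they were 554 and 270 for 24 h in DT40 and B7.10 (220 and 89 without it), 41 and 616 for stimulation (17 and 0), and 2 for its difference between lines (1). Without disputed arrays they were 146 and 25 for 24 h, 1 (against 2) for its difference, 0 for the difference in stimulation, 245 (405) for serum batches in B7.10, 296 (476) for line by serum batch, 0 (5) and 118 (361) for stimulation and 24 h over 4 lines, and 1406 (2705) for B46-5 against B7.10. With cyclic loess, stimulation gave 1 in B7.10 and 14 over 4 lines. Without single arrays the counts ran from 69 to 1341 and 9 to 290 for 24 h in DT40 and B7.10, 5 to 38 and 0 to 74 for stimulation, 0 to 12 for its difference, 1 to 3 for the difference in the 24 h change, 297 to 669 and 191 to 543 for serum batches in DT40 and B7.10, 282 to 566 for line by serum batch, 1754 to 3176 at 2 h, 0 to 6 for stimulation over 4 lines and 104 to 367 for 24 h over 4 lines. For time and stimulation in DT40 and B7.10, counts without arrays can also hold serum differences, since the batches were then unbalanced. Levels near background limit what can be said of IL13RA1 and PROM1 in DT40 and B41-13.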
